A study of Mus musculus with 12 samples.

Results

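Replication-dependent histone genes supply the histone proteins that package newly copied DNA, and their 26 measured members are described here by histone type. They were chosen by gene symbol alone: every array row annotated with 1 gene whose name marks it as an H1, H2A, H2B, H3 or H4 gene of the histone clusters. Of the 22180 genes that had such a row, 26 were histone genes (27 rows, since H2ac21 had 2, of which the one with the higher mean was used). They comprised 5 H1, 6 H2A, 8 H2B and 7 H4 genes, and no H3 gene had a row of its own. In the mouse assembly GRCm38.p6, 21 lie on chromosome 13 and 5 on chromosome 3.

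The cells were primary Kit-enriched mouse bone marrow cells with floxed Tet2 alleles and CreER, a Cre recombinase that tamoxifen switches on, made to express the leukaemia fusion protein AML1-ETO together with GFP from a retrovirus. All 4 groups carried the floxed alleles before treatment, CreER and AML1-ETO. After replating in methylcellulose and a shift to suspension culture, 1 arm received 4-hydroxytamoxifen (4-OHT) at 200 nM for 2 passages (4 days) and is labelled Tet2-/-, and the other received ethanol and is labelled Tet2fl/fl. GFP+, CD11b-, Gr1-, CD16/32+ cells were sorted at passage 2 and at passage 10 and measured on 3 arrays per group, 12 arrays in all. Only the Tet2-/- arm met 4-OHT and active Cre, so their effects and that of losing Tet2 cannot be told apart. Nothing in the labels tells if replicates were grown apart, and p-values here refer to the spread between these arrays, which may be technical.

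Replication-dependent histone mRNAs are made in S phase, when DNA is copied, and are destroyed when S phase ends. They carry no poly(A) tail: a stem-loop at their end is bound by SLBP, and the coactivator NPAT drives their transcription in histone locus bodies under cyclin E and CDK2. H2A, H2B, H3 and H4 form the nucleosome core around which DNA winds, and H1 binds the linker DNA between cores.

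Values are log2 signals, and a histone gene entered the test when its mean over the 12 arrays reached log2 4.70, the 30th percentile of all rows. In all 22 did so: 5 H1, 5 H2A, 7 H2B and 5 H4 genes. Below that level lay H2ac12, H2bc1, H4c2 and H4c8, with no single value above 4.71. Differences were tested with limma over 16860 genes, and "passed" means a Benjamini-Hochberg adjusted p under 0.05. The array medians lay between 5.57 and 5.68. Tet2 itself averaged 9.97 (Tet2fl/fl) and 9.94 (Tet2-/-) at passage 2 and 9.88 and 9.83 at passage 10 (average genotype difference -0.04 ± 0.07, adjusted p = 0.846), and 1 value that covers the gene as a whole does not check the deletion. All 12 progenitor and sort-gate genes examined were above the filter, among them Cd34 (12.21 in Tet2fl/fl cells at passage 2) and Fcgr3, which encodes CD16 (10.88). Itgam, which encodes CD11b, read 8.07 in that group. Kit, by which the cells were enriched, averaged 10.66 (Tet2fl/fl) and 9.83 (Tet2-/-) at passage 2 and 10.80 and 9.99 at passage 10, and was lower in Tet2-/- cells in all 6 numbered pairs, with no overlap (-0.82 ± 0.15, adjusted p = 0.022).

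Promoter sequences differ by histone type. Promoter windows of 300 bases (250 before to 50 after the annotated start, from RefSeq on GRCm38.p6) were found for 24 of the 26 members, all but H2bc21 and H4c14. The motifs searched, on both strands, were the octamer ATTTGCAT, the CCAAT box (CCAAT), the TATA box (TATAAA), the AC box of H1 promoters (AAACACA) and GGTCCG, part of the element that the factor HINFP binds in H4 promoters. Below, 140 bases up to the start are given for H2B and H4 genes that fell with passage and for H1f3, the H1 gene that rose in Tet2-/- cells, beside another H1 gene. Capitals mark those motifs, with ATTGG being CCAAT read on the other strand.
H2bc14, chr13:21721904-21722043, plus strand: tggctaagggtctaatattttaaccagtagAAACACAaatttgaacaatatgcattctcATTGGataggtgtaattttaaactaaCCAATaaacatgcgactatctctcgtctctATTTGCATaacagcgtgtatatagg
H2bc3, chr13:23746594-23746733, plus strand: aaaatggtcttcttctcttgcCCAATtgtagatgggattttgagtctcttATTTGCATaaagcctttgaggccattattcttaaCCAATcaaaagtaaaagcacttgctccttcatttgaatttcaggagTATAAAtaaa
H1f3, chr13:23554892-23555031, plus strand: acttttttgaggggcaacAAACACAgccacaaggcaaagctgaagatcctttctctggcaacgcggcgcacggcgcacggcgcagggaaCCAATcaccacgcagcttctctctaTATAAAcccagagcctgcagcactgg
H1f5, chr13:21780626-21780765, minus strand: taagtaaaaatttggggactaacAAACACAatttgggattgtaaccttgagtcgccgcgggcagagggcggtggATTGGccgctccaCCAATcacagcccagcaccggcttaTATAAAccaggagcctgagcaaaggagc
H4c9, chr13:22041363-22041502, minus strand: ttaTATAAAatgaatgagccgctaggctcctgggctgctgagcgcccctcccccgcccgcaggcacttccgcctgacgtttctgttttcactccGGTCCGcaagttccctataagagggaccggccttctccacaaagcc
H4c17, chr13:21811606-21811745, plus strand: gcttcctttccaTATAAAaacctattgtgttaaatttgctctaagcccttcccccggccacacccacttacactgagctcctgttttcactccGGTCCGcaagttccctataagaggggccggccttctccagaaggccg

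The octamer, the motif that octamer-binding factors read, was present in 5 of 7 H2B and 3 of 6 H2A windows and in 0 of 5 H1 and 0 of 6 H4 windows, against 1.74% of all 32851 promoter windows. In the 5 H2B windows it lay on the gene's own strand and in the 3 H2A windows on the other. CCAAT was present in all 5 H1, all 6 H2A and all 7 H2B windows and in 1 of 6 H4 windows (H4c1), against 37.4% of all windows. AAACACA occurred in 4 of 5 H1, 1 of 6 H2A and 2 of 7 H2B windows, against 7.18% of all. GGTCCG occurred in 5 of 6 H4 windows, all but H4c1, and in 1 H2B window, that of H2bc9, against 8.25% of all. TATAAA was found in 16 of the 24, against 13.6% of all. The H4c9 and H4c17 promoters shared an unbroken run of 38 identical bases, from -59 to -22 of H4c9 and from -60 to -23 of H4c17, which holds GGTCCG. Some windows belong to 2 genes read in opposite directions: those of H2ac1 and H2bc1 shared 220 bases and those of H2ac12 and H2bc12 shared 277, so their motif counts are not independent. A match describes the letters in the window and does not show that a factor binds there, and a window without a match says only that these letters are absent from it.

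**Figure D1:**
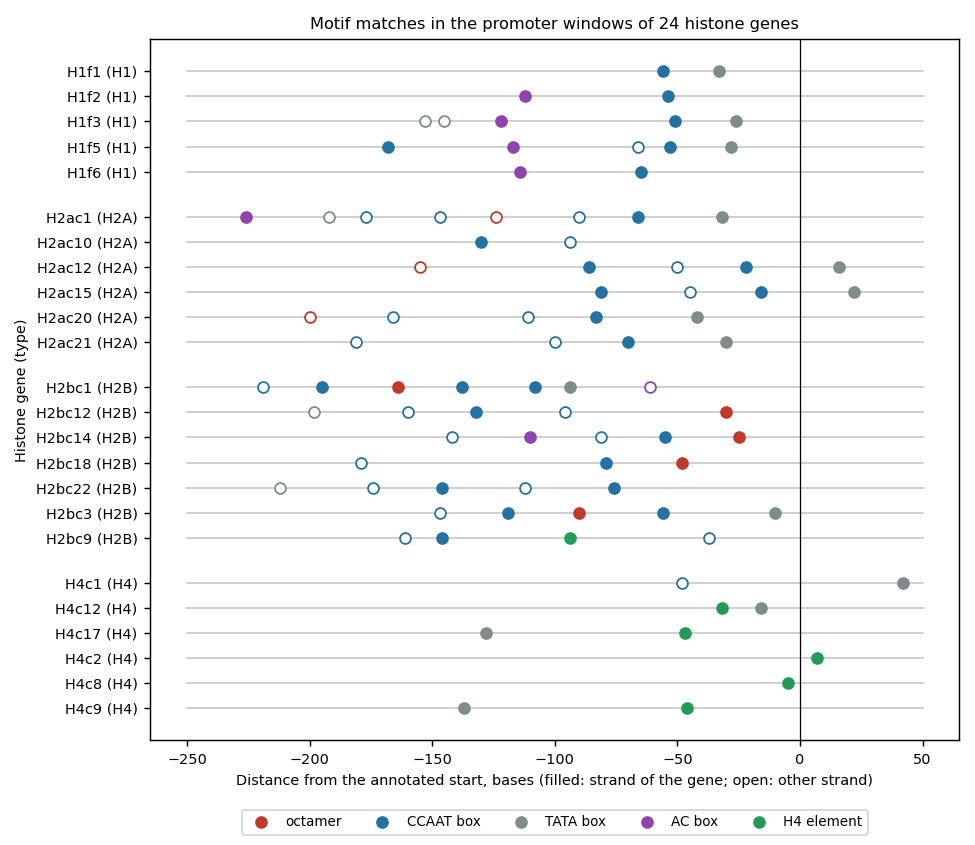
Positions of 5 motifs in the promoter windows of 24 histone genes, by histone type. The x axis is the distance of the motif's first base from the annotated start in bases, filled circles are matches on the gene's own strand and open circles matches on the other strand. Octamer matches lie only in H2A and H2B windows among these genes, and GGTCCG (H4 element) lies in 5 of 6 H4 windows and in that of H2bc9.

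The first comparison set passage 10 against passage 2, that is, longer against shorter culture after treatment. Histone genes were lower at passage 10: averaged over both genotypes, 21 of 22 had a negative difference (40.2% of all genes did), with a median of -0.45 against 0.04 for all genes tested. In limma's test 11 of the 22 were lower and none was higher, where 4.52% of all genes were lower, and 18 had an unadjusted p under 0.05 and were lower, as 12.3% of all genes were. The 11 were 1 H1 gene (H1f1), 2 H2A genes (H2ac20 and H2ac21), 5 H2B genes (H2bc3, H2bc9, H2bc12, H2bc14 and H2bc21) and 3 H4 genes (H4c9, H4c14 and H4c17). Arrays with the same replicate number were lower at passage 10 in all 6 numbered pairs for 17 of the 22, a pattern that 8.43% of all genes showed. All 6 passage 10 arrays lay below all 6 passage 2 arrays for 4 members (H4c17, H2bc21, H2ac20 and H2bc12), against 2.25% of all genes. Since RNA came from many cells at once, fewer cells in S phase and less histone mRNA per cell cannot be told apart.

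Replicate numbers paired the arrays, and with the number as a block 15 members were lower, where 7.28% of all genes were. H1f5, H2ac10, H2ac15 and H2bc18 were those added. The count of 11 depended on single arrays. It became 5 when any of Tet2fl/fl p2 replicate 3, Tet2-/- p2 replicate 3 and Tet2-/- p10 replicate 2 was left out, 6 when replicate 2 or 3 of Tet2fl/fl p10 was left out and 7 when Tet2-/- p2 replicate 1 was. H2bc9, H2bc21, H2ac20, H4c9 and H4c17 passed without each of the 12 arrays in turn. Among the genes that passed under each scaling, the share of higher ones was 41.8% as deposited (1310 genes), 59.2% with equal array medians and 63.7% with quantile normalization. The genes that passed differed between scalings, and 10 and 11 histone genes were lower under the latter 2 scalings.

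Of the 5 genes of the linker histone H1, 1 was lower and another was with the block. In what follows the 3 values of Tet2fl/fl cells (replicates 1, 2 and 3) come before the 3 of Tet2-/- cells. H1f1 read 8.62, 8.23 and 8.95 and 8.56, 8.87 and 8.89 at passage 2, and 7.96, 7.85 and 7.97 and 8.27, 8.09 and 8.64 at passage 10. The Tet2fl/fl arrays of the 2 passages did not overlap, whereas 1 Tet2-/- array at passage 10 stayed above the lowest at passage 2. Its average passage difference was -0.56 ± 0.13 (adjusted p = 0.0276), and it missed the threshold with array weights (0.0627). So it did when 1 of 6 arrays was left out: replicate 3 of either passage 2 group, replicate 2 or 3 of Tet2fl/fl p10, or replicate 1 or 2 of Tet2-/- p10 (adjusted p up to 0.0664). H1f5 read 10.82, 10.73 and 11.35 and 10.65, 10.64 and 11.42 at passage 2, and 10.39, 10.11 and 10.54 and 10.37, 10.22 and 10.90 at passage 10. Replicate 3 was the highest in each group, and the difference of -0.51 ± 0.17 passed only with the block (adjusted p = 0.092 and 0.00403). The other 3 H1 genes had differences of -0.17 ± 0.12 (H1f3), -0.08 ± 0.11 (H1f2) and -0.06 ± 0.12 (H1f6, the testis linker histone gene), with adjusted p values of 0.374, 0.667 and 0.771. Each of these 3 was lower in 3 of 6 numbered pairs.

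Of the 5 H2A genes, which encode a core histone that pairs with H2B, 4 had negative differences. H2ac20 read 8.02, 7.56 and 8.31 and 7.89, 7.83 and 8.18 at passage 2, and 7.45, 7.25 and 7.46 and 7.16, 6.99 and 7.52 at passage 10. Every passage 10 array lay below every passage 2 array, at -0.66 ± 0.13 or 1.58-fold (adjusted p = 0.0195). H2ac21 read 9.94, 9.57 and 9.94 and 9.84, 9.80 and 10.12 at passage 2, and 9.44, 9.34 and 9.77 and 9.08, 9.38 and 9.62 at passage 10. Its Tet2fl/fl arrays overlapped between passages and its Tet2-/- arrays did not. The difference of -0.43 ± 0.12 (adjusted p = 0.0459) kept its call only when the array left out was replicate 2 of Tet2fl/fl p2, replicate 3 of Tet2fl/fl p10 or replicate 3 of Tet2-/- p10, and reached adjusted p values up to 0.113 without 1 of the other 9. H2ac21 has a second row with a mean of 4.95, and with the mean of both rows the difference was -0.20 (adjusted p = 0.122). It also missed the threshold with equal array medians (0.0687), without a filter (0.059), with array weights (0.0884) and over all rows (0.057). H2ac10 read 12.08, 11.77 and 12.18 and 12.13, 11.88 and 12.12 at passage 2, and 11.83, 11.55 and 11.79 and 11.72, 11.44 and 11.87 at passage 10. The 2 passages overlapped in Tet2fl/fl cells and stood apart narrowly in Tet2-/- cells, and the difference of -0.33 ± 0.10 passed only with the block (adjusted p = 0.0664 and 0.00559). H2ac15 read 9.63, 9.14 and 9.84 and 9.67, 9.56 and 9.85 at passage 2, and 9.44, 8.96 and 9.10 and 9.27, 9.06 and 9.48 at passage 10. It too passed only with the block (-0.40 ± 0.13, adjusted p = 0.0819 and 0.0185), with overlap in Tet2fl/fl cells and none in Tet2-/- cells. H2ac1, a testis H2A gene, lay between 5.66 and 6.07 at passage 2 and between 5.50 and 6.30 at passage 10, with a difference of 0.03 ± 0.15 (adjusted p = 0.91).

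H2B genes had negative differences without exception among the 7 tested, from -0.79 to -0.33. H2bc14 read 8.0, 7.88 and 8.51 and 8.17, 8.59 and 8.78 at passage 2, and 7.77, 7.39 and 7.0 and 7.94, 7.25 and 7.81 at passage 10. The passages did not overlap within either genotype, and the difference was -0.79 ± 0.18 or 1.73-fold (adjusted p = 0.0253). H2bc9 read 8.09, 7.85 and 8.59 and 8.57, 8.55 and 8.75 at passage 2, and 7.87, 7.51 and 7.55 and 7.99, 7.62 and 7.74 at passage 10. Tet2fl/fl replicate 1 at passage 10 lay above Tet2fl/fl replicate 2 at passage 2, whereas the Tet2-/- arrays of the passages stood apart. The difference of H2bc9 was -0.68 ± 0.12 (adjusted p = 0.0161).

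H2bc21, an H2B gene also known as a variant of olfactory neurons, read 6.56, 6.49 and 6.73 and 6.72, 6.93 and 6.85 at passage 2, and 6.41, 6.08 and 5.99 and 6.11, 6.13 and 6.24 at passage 10. All 12 arrays sorted by passage, at -0.55 ± 0.08 (adjusted p = 0.00891). H2bc12 read 10.93, 10.76 and 11.19 and 10.82, 10.79 and 11.38 at passage 2, and 10.59, 10.24 and 10.28 and 10.54, 10.08 and 10.63 at passage 10. It too sorted by passage (-0.58 ± 0.14, adjusted p = 0.0292). H2bc3 read 10.43, 10.01 and 10.41 and 10.58, 10.58 and 10.71 at passage 2, and 10.17, 9.79 and 10.09 and 10.14, 9.66 and 10.17 at passage 10. Its Tet2fl/fl arrays overlapped and its Tet2-/- arrays did not (-0.45 ± 0.11, adjusted p = 0.0357). H2bc14, H2bc12 and H2bc3 each lost their call without replicate 3 of either passage 2 group, replicate 3 of Tet2fl/fl p10 or replicate 2 of Tet2-/- p10 (adjusted p up to 0.0653, 0.0784 and 0.0915). H2bc12 and H2bc3 lost it also without replicate 1 of Tet2-/- p2 or replicate 2 of Tet2fl/fl p10, and H2bc3 without replicate 1 of Tet2fl/fl p2. H2bc18 read 9.16, 9.05 and 9.38 and 9.12, 8.92 and 9.45 at passage 2, and 8.98, 8.61 and 8.80 and 9.01, 8.62 and 9.04 at passage 10. Its Tet2fl/fl arrays did not overlap and its Tet2-/- arrays did, and it passed only with the block (-0.33 ± 0.11, adjusted p = 0.0891 and 0.0159). H2bc22 passed with neither (-0.36 ± 0.13, adjusted p = 0.112 and 0.0908).

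H4 genes, which encode the most conserved core histone, held both the steadiest and the largest passage differences. H4c9 read 7.59, 7.56 and 7.73 and 7.89, 7.90 and 8.01 at passage 2, and 7.21, 7.09 and 7.01 and 7.58, 7.53 and 7.54 at passage 10. The passages stood apart within each genotype, and across genotypes they met, with 1 Tet2-/- array at passage 10 reaching the lowest Tet2fl/fl value at passage 2. Its difference was -0.45 ± 0.06 (adjusted p = 0.00891), with a within-group SD of 0.08, the lowest of the 22 members. H4c17 read 8.05, 7.64 and 8.19 and 8.0, 8.29 and 8.32 at passage 2, and 7.58, 7.09 and 7.26 and 7.19, 7.11 and 7.49 at passage 10. All arrays sorted by passage, with the largest average difference of the 22, -0.80 ± 0.12 or 1.74-fold (adjusted p = 0.0101). H4c14 read 6.18, 6.16 and 6.83 and 6.59, 6.98 and 6.65 at passage 2, and 6.04, 5.66 and 5.28 and 6.56, 6.0 and 6.15 at passage 10. The passages stood apart narrowly in each genotype, and the difference of -0.61 ± 0.16 (adjusted p = 0.0433) missed the threshold without the filter (0.0538) and over all rows (0.0541). It kept its call only when the array left out was replicate 1 of any group but Tet2-/- p2, with adjusted p values up to 0.101 without 1 of the other 9. H4c1 (-0.52 ± 0.19, adjusted p = 0.104) and H4c12 (-0.18 ± 0.07, adjusted p = 0.138) passed with neither fit.

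**Figure D2:**
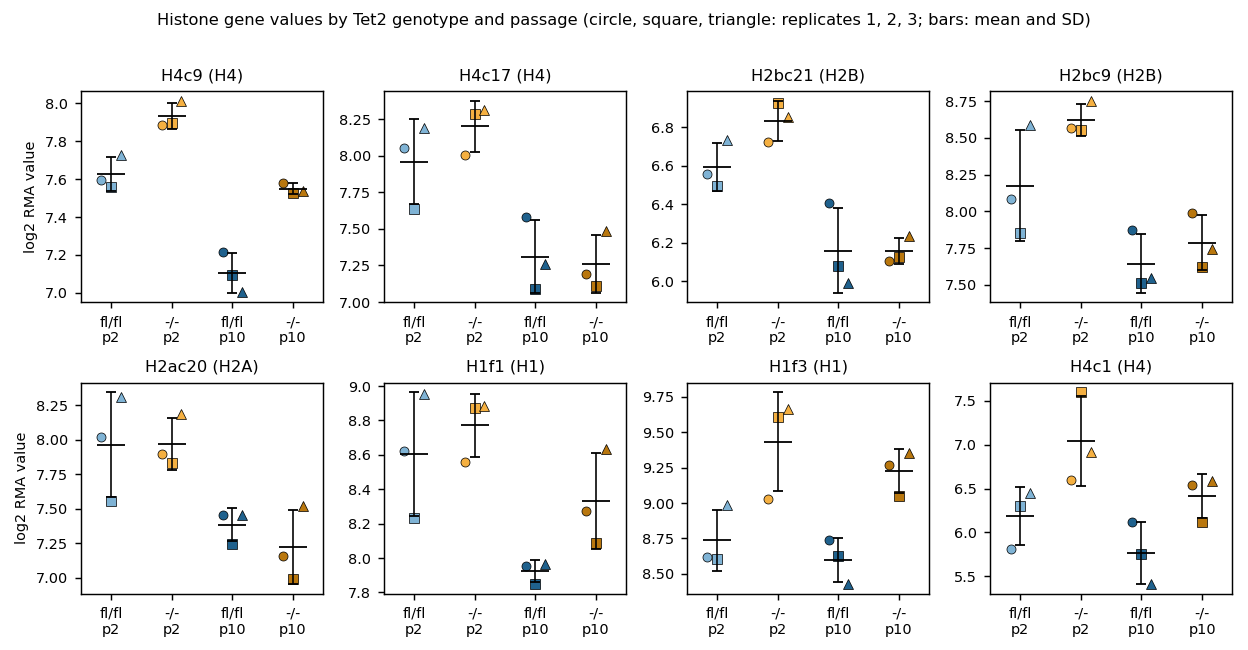
Log2 values of 8 histone genes on each of the 12 arrays. Each panel is 1 gene with its own y axis, points are arrays (circle, square and triangle for replicates 1, 2 and 3) and bars are the group mean and SD (n = 3). H4c17, H2bc21 and H2ac20 have all 6 passage 10 arrays below all 6 passage 2 arrays, and H1f3 has all 6 Tet2-/- arrays above all 6 Tet2fl/fl arrays.

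The medians of the average passage difference were -0.17 for H1, -0.40 for H2A, -0.55 for H2B and -0.52 for H4 genes, and differences between types were not tested. H3 could be seen only through rows that name several histone genes at once, since the coding sequences are near-identical. There were 37 such rows and 34 passed the filter. The 9 H3 rows among them were all negative (median -0.66, from -0.90 to -0.07), and 4 were lower (5 with the block) in a fit over all 28941 rows, where 4.5% of rows were lower (6.7% with the block). Of the 11 shared H2A, 8 shared H2B and 5 shared H4 rows, 3, 2 and 2 were lower. Over all 34 shared rows 32 were negative, with a median of -0.32. Rows of 1 symbol can also hold signal of near-identical copies, which was not tested, so single members are less certain than the type.

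Within each genotype most histone genes were lower at passage 10, and the adjusted test was passed in Tet2-/- cells alone. In Tet2fl/fl cells 21 of 22 differences were negative (42.1% of all genes) with a median of -0.41 (all genes 0.03), and 11 were lower by an unadjusted p under 0.05, as 4.5% of all genes were. None passed in limma's adjusted test without the block (0% of all genes were lower) or with it (0.0356%). H4c9 came closest (-0.52 ± 0.08, adjusted p = 0.317, with the block 0.0511). The arrays of the 2 passages did not overlap for 11 of the 22, against 6.55% of all genes.

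In Tet2-/- cells all 22 were negative (42.4% of all genes) with a median of -0.43 (all genes 0.04), and 4 were lower, where 1.73% of all genes were. By an unadjusted p under 0.05 13 were lower, as 10.8% of all genes were. The 4 that passed the adjusted test were H4c17 (-0.94 ± 0.17 or 1.92-fold, adjusted p = 0.0272), H2bc9 (-0.84 ± 0.17, 0.0365), H2bc21 (-0.68 ± 0.11, 0.0257) and H4c9 (-0.38 ± 0.08, 0.0365). With the replicate block 10 were lower, where 4.68% of all genes were. H2bc3 (-0.64, adjusted p = 0.0533 and 0.0107), H2ac20 (-0.75, 0.0549 and 0.00926), H2ac21 (-0.56, 0.0847 and 0.0219), H2bc12 (-0.58, 0.116 and 0.0367), H2ac10 (-0.37, 0.157 and 0.0208) and H1f5 (-0.40, 0.368 and 0.0435) were added. The arrays did not overlap for 13 of 22, against 12.9% of all genes. The count of 4 was 0 without Tet2-/- p2 replicate 1 or 3 or without any 1 of the 3 Tet2-/- p10 arrays, 2 without Tet2-/- p2 replicate 2 and 0 when just the 6 arrays of the contrast were fitted. Among the genes that passed here under each scaling, 41.9% were higher as deposited (503 genes), 60.2% with equal array medians and 59.9% with quantile normalization. Under the latter scalings 3 and 5 histone genes were lower.

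**Figure D3:**
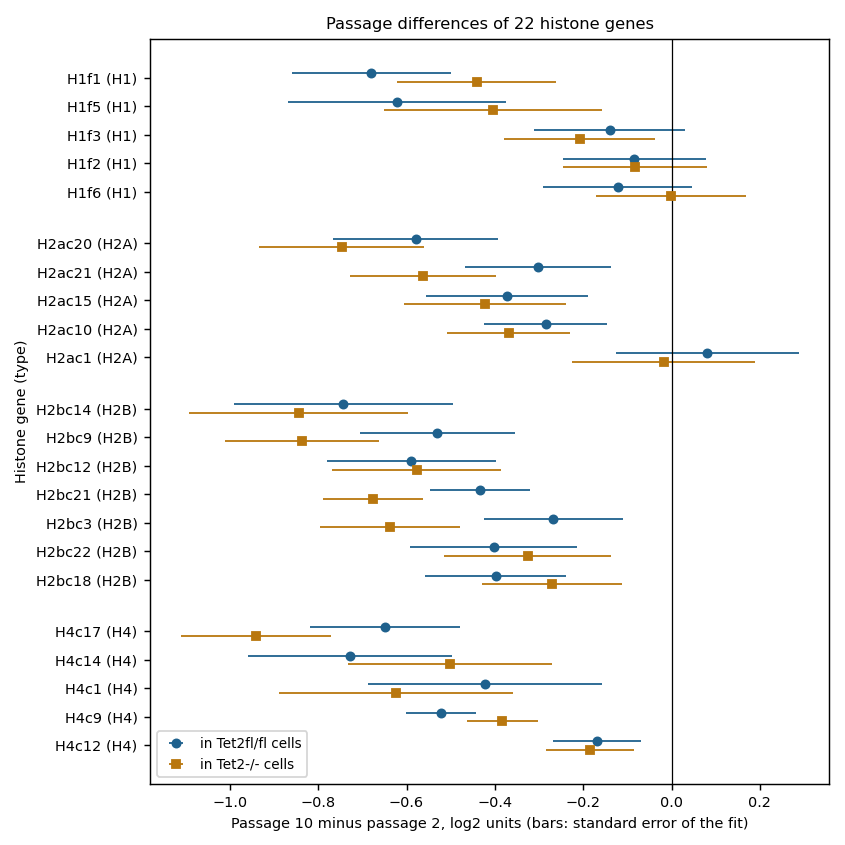
Passage 10 minus passage 2 for the 22 histone genes in Tet2fl/fl cells (circles) and in Tet2-/- cells (squares), grouped by histone type. The x axis is the difference in log2 units and bars are standard errors of the fit. All 22 squares and 21 of 22 circles lie below 0, H2ac1 being the exception.

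The interaction asked whether the passage difference depended on genotype. No histone gene passed in limma's test (0% of all genes did) or with the block (0.00593%, 1 of 16860 genes). An unadjusted p under 0.05 was reached by 0 members and by 3.22% of all genes. The largest was that of H2bc3 (-0.37 ± 0.22, adjusted p = 0.999), followed by H2bc9 (-0.31 ± 0.25). The median over the 22 was -0.06. The standard errors of the 22 interactions lay between 0.11 and 0.37, and a p that misses the threshold does not show that both genotypes changed alike.

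The next comparison set Tet2-/- against Tet2fl/fl cells. Averaged over both passages, 19 of the 22 histone genes had positive differences (48.6% of all genes did), with a median of 0.14 (all genes -0.004), and 2 of the 22 passed, both higher: H1f3 and H4c9. Of all genes 0.658% were higher, and by an unadjusted p under 0.05 9 members and 6.8% of all genes were. The same count, 2, passed with the block, where 2.16% of all genes were higher. All 6 numbered pairs were higher for 5 members (H1f2, H1f3, H2bc9, H4c1 and H4c9), which 5.61% of all genes showed. Among the genes that passed under each scaling, 38.3% were higher as deposited (290 genes) and 23.3% with equal array medians, and 2 histone genes were higher under both.

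H1f3, a linker histone gene, read 8.62, 8.60 and 8.98 (Tet2fl/fl) against 9.03, 9.61 and 9.66 (Tet2-/-) at passage 2, and 8.74, 8.62 and 8.43 against 9.27, 9.05 and 9.36 at passage 10. All 6 Tet2-/- arrays lay above all 6 Tet2fl/fl arrays, as for 0.658% of all genes. The average difference was 0.66 ± 0.12 or 1.58-fold (adjusted p = 0.0228), with 0.70 at passage 2 (adjusted p = 0.196) and 0.63 at passage 10 (0.191). Leaving out replicate 2 at passage 2 of either genotype ended its call (adjusted p = 0.069 without the Tet2fl/fl and 0.0577 without the Tet2-/- array), as did leaving out replicate 3 at passage 10 (0.0533 and 0.0625), and H4c9 was then the 1 histone gene called.

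H4c9 was higher in Tet2-/- cells at both passages in the values given above, where no Tet2-/- array fell to the Tet2fl/fl level of its own passage. The average difference was 0.38 ± 0.06 or 1.30-fold (adjusted p = 0.0102), and it passed without each of the 12 arrays (adjusted p up to 0.0368). At passage 10 alone it was 0.45 ± 0.08 (adjusted p = 0.056, with the block 0.0379, and 0.042 without replicate 1 of Tet2fl/fl p10), and at passage 2 0.31 ± 0.08 (adjusted p = 0.217). H4c1 had the largest difference by size, with 5.81, 6.30 and 6.45 against 6.60, 7.60 and 6.92 at passage 2 and 6.12, 5.76 and 5.41 against 6.54, 6.12 and 6.58 at passage 10. The genotypes stood apart at both passages, at passage 10 only barely (6.1204 in Tet2fl/fl replicate 1 and 6.1225 in Tet2-/- replicate 2). The average of 0.75 ± 0.19 did not pass (adjusted p = 0.0677, with the block 0.0547). The remaining members lay between -0.08 (H2ac20) and 0.46 (H4c14, adjusted p = 0.186), with H1f2 at 0.34 ± 0.11 (adjusted p = 0.167).

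At passage 2 alone 20 of 22 were positive (49.2% of all genes) with a median of 0.22, and no member passed in limma's test with or without the block (0% and 0.148% of all genes were higher). By an unadjusted p under 0.05 4 were higher, as 4.29% of all genes were. The 4 were H1f3, H4c9, H4c1 (0.85 ± 0.26) and H2bc9 (0.45 ± 0.17). At passage 10 16 of 22 were positive (47.4% of all genes), none passed without the block (0.125% of all genes were higher) and H4c9 alone passed with it (0.611%). By the unadjusted p 5 were higher (4.59% of all genes), H4c14 (0.58 ± 0.23) and H1f1 (0.41 ± 0.18) joining H1f3, H4c9 and H4c1, and the median was 0.12. By type the average genotype medians were 0.29 for H1, -0.01 for H2A, 0.15 for H2B and 0.38 for H4 genes. All 5 H1, all 7 H2B and all 5 H4 genes were positive, against 2 of 5 H2A genes, and these differences between types were not tested. Of the 34 shared rows 25 were positive, and 2 were higher, 1 naming H3 genes (0.88 ± 0.17, adjusted p = 0.0499) and 1 naming H1 and H2B genes (0.72 ± 0.14, 0.0499). In that fit 0.27% of all rows were higher (0.605% with the block, by which the H3 row passed).

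**Figure D4:**
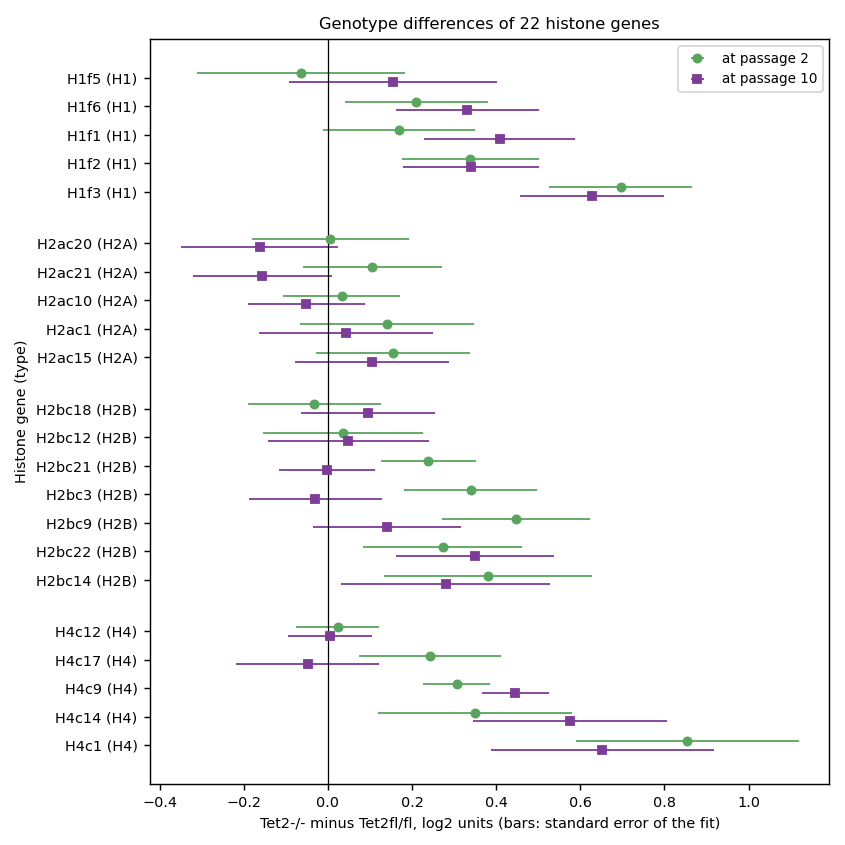
Tet2-/- minus Tet2fl/fl for the 22 histone genes at passage 2 (circles) and passage 10 (squares), grouped by histone type. The x axis is the difference in log2 units and bars are standard errors of the fit. H1f3 lies at 0.70 and 0.63 and H4c9 at 0.31 and 0.45, while H2A genes lie around 0.

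Of 22 genes tested whose products make and process histone mRNA, 2 were lower with passage on average: Npat, the histone gene coactivator (-0.23 ± 0.06, adjusted p = 0.0401), and Casp8ap2, which encodes the FLASH protein of histone locus bodies (-0.25 ± 0.05, adjusted p = 0.0232). Slbp, whose protein binds the stem-loop, had a difference of -0.17 ± 0.07 (adjusted p = 0.139). The list's median was -0.11, and 16 of 22 were negative, where 40.2% of all genes were negative and 4.52% lower. No member passed for passage in Tet2-/- cells without the block, and Npat (-0.34, adjusted p = 0.0527 and 0.0322) and Casp8ap2 (-0.30, 0.0527 and 0.0438) passed with it. Eri1, which encodes an exonuclease that degrades histone mRNA, was higher in Tet2-/- cells on average with the block only (0.32 ± 0.10, adjusted p = 0.135 and 0.0279).

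Among 7 histone variant genes that the symbol rule did not take in, 1 was lower with passage. It was H2ax, whose protein is phosphorylated at DNA breaks (-0.63 ± 0.12, adjusted p = 0.017). Its group means were 10.88 and 10.93 (Tet2fl/fl and Tet2-/-) at passage 2 and 10.32 and 10.22 at passage 10, with no overlap between passages. The other 6 lay between -0.20 (Cenpa, of centromeres, adjusted p = 0.243) and 0.10 (H2az2), with H2az1 at -0.16 (0.231). Of 20 histone chaperone genes 4 were lower: Nasp, a carrier of H3 and H4 (-0.57), Asf1a, which hands H3 and H4 to assembly factors (-0.45), Hat1, which acetylates new H4 (-0.44), and Supt16 of the FACT complex (-0.34), with adjusted p values of 0.0195, 0.014, 0.0146 and 0.0202. Ubn1, part of a complex that deposits H3 outside replication, was higher (0.27, adjusted p = 0.0187), and with the block 7 were lower and 1 higher. In Tet2-/- cells alone Asf1a (-0.57) and Nasp (-0.70) were lower, with 4 chaperone genes lower under the block. Ubn1 (0.38) was higher there, and H2ax (-0.71, adjusted p = 0.0485) was lower. Of all 16860 genes 4.52% were lower in the average over both genotypes, 7.28% were with the block, and 548 were higher without it. In Tet2-/- cells 1.73% of all genes were lower, 4.68% were with the block, and 211 were higher without it.

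Genes of DNA replication and of mitosis were lower with passage as well. All 36 replication genes tested had negative average differences, with a median of -0.39, and 18 were lower, where 4.52% of all genes were. Dut (-0.59 ± 0.08, adjusted p = 0.00891) and Rrm2 (-0.61, 0.0161), which supply nucleotides, Orc6 of the origin recognition complex (-0.55, 0.0106) and Uhrf1, which follows the fork (-0.57, 0.0133), were among them. Of 27 genes of mitosis and cytokinesis all were negative as well (median -0.50) and 18 were lower, such as Bub1 (-0.69, 0.013), Cenpe (-0.70, 0.0161), Kif23 (-0.60, 0.0161) and Tpx2 (-0.45, 0.0139). With the block 25 replication and 27 mitosis genes were lower, against 7.28% of all genes. In Tet2-/- cells alone 5 replication genes (Dut, Orc1, Orc6, Tyms and Uhrf1) and 4 mitosis genes (Bub1, Cenpe, Mad2l1 and Tpx2) were lower, and 13 and 18 with the block, against 1.73% and 4.68% of all genes. In Tet2fl/fl cells none was, and with the block 3 mitosis genes were (Cdkn3, Kif11 and Anln). For genotype 1 gene of both lists passed, Mcm3 of the replicative helicase (0.34 ± 0.08, adjusted p = 0.0486), where 0.658% of all genes were higher. Of 36 replication genes 27 were negative, with a median of -0.04. Of all genes 48.6% were positive, with a median of -0.004. The mean of the 27 mitosis genes was 9.37 (Tet2fl/fl) and 9.44 (Tet2-/-) at passage 2 and 8.85 and 8.95 at passage 10. Group SDs of that mean were 0.17 to 0.25. No test compared the lists with each other.

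**Figure D5:**
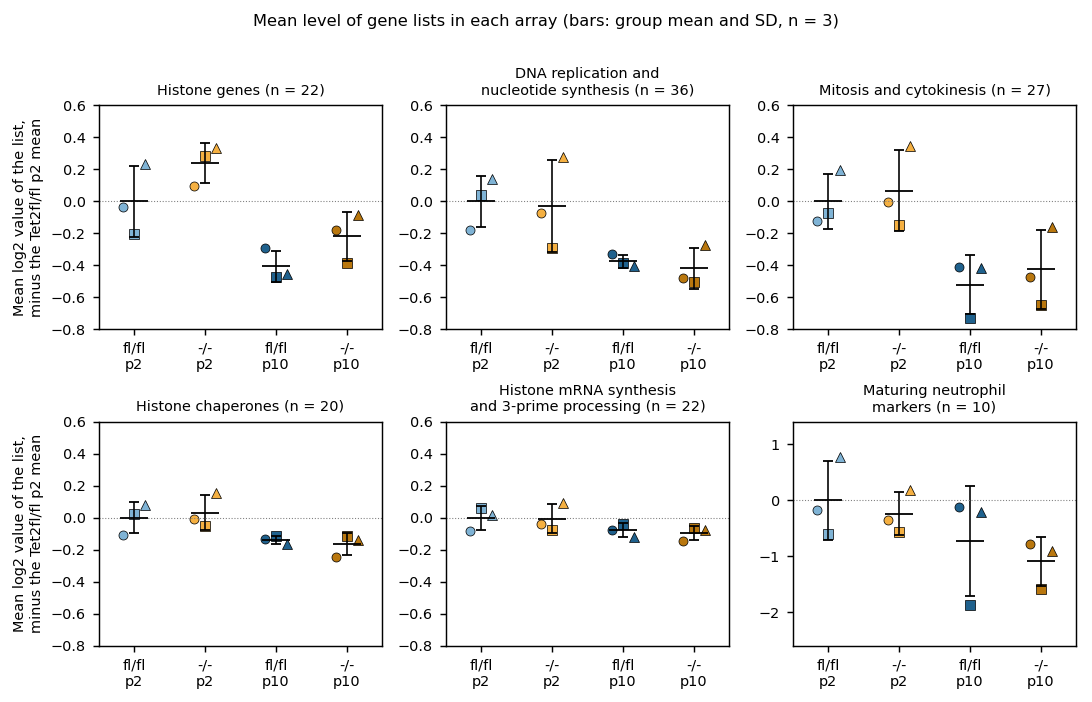
Mean log2 value of 6 gene lists on each array, relative to the mean of the Tet2fl/fl passage 2 arrays. Points are arrays (circle, square and triangle for replicates 1, 2 and 3), bars are the group mean and SD (n = 3), and the y axis of the neutrophil panel has a wider range. The histone gene mean ran over 8.37 to 8.81 and 8.67 to 8.91 at passage 2 (Tet2fl/fl and Tet2-/-) and over 8.10 to 8.28 and 8.18 to 8.49 at passage 10.

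Markers of other cell types moved with passage as well. Of 10 genes of maturing neutrophils 8 had negative average passage differences (median -0.74), as 40.2% of all genes had. Ngp, a granule protein gene, was lower (-1.81, adjusted p = 0.0275), and with the block S100a8 (-2.15), S100a9 (-1.24) and Mmp8 (-0.79) were too (adjusted p = 0.0086, 0.0201 and 0.045). Of all genes 4.52% were lower, and 7.28% with the block. Elane, a granule protease gene on the progenitor list, was lower with the block as well (-1.53, adjusted p = 0.0794 and 0.0113). No other gene of the progenitor list passed with either fit. Prtn3 (-0.73), Mpo (-0.49), Cd34 (-0.19) and Itgam (-0.03) were negative. Ly6g (0.53), Cebpa (0.33), Kit (0.15), Fcgr3 (0.15), Spi1 (0.11), Ctsg (0.08) and Fcgr2b (0.02) were positive. All 10 neutrophil genes were above the filter, and their mean level spanned 7.77 to 9.16 and 7.81 to 8.56 at passage 2 (Tet2fl/fl and Tet2-/-) and 6.51 to 8.25 and 6.79 to 7.59 at passage 10. All 6 megakaryocyte genes were positive, where 40.2% of all genes were negative. Ppbp (1.75, adjusted p = 0.014) and Itgb3 (0.81, 0.0305) were higher, as 548 of all 16860 genes were. Itga2b (0.31, adjusted p = 0.156 and 0.0371) was higher with the block. The megakaryocyte mean spanned 7.97 to 8.18 and 7.81 to 8.23 at passage 2 and 8.41 to 8.94 and 8.50 to 8.95 at passage 10. Of 4 erythroid genes Tfrc, the transferrin receptor gene, was lower in all 6 numbered pairs with no overlap (-0.64 ± 0.12, adjusted p = 0.0169). Of all genes 8.43% were lower in all 6 pairs, and 2.25% were lower with no overlap. Car2 was lower with the block (-0.93, adjusted p = 0.168 and 0.0405), while Klf1 (0.08) and Epor (0.04) were positive. The erythroid mean spanned 7.61 to 7.86 and 7.55 to 7.62 at passage 2 and 6.95 to 7.48 and 6.99 to 7.66 at passage 10. Of 5 B cell genes Pax5 was higher (0.34, adjusted p = 0.0475). Its group means were 5.49 to 5.92, near the array medians of 5.57 to 5.68. Ebf1 and Cd79a were positive as well, while Ighm (-0.66) and Cd79b (-0.14) were negative. Of 7 monocyte and macrophage genes Ccr2 was higher with the block (0.52, adjusted p = 0.105 and 0.0235). Adgre1 and C1qa were positive too, while F13a1 (-0.50), Ms4a6c (-0.29), Cx3cr1 (-0.01) and Csf1r (-0.01) were negative. Of 4 T and NK cell genes none passed with either fit.

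Markers of other cell types moved with genotype too, beside Kit. Of all 16860 genes 48.6% had a positive average genotype difference, and 179 were lower in limma's adjusted test. Of 10 mast cell and basophil genes 7 were negative (median -0.29), with Tpsab1, a mast cell tryptase gene, lower (-1.43, adjusted p = 0.0124). With the block Fcer1a (-1.58, adjusted p = 0.0505 and 0.0213), Cma1 (-0.77, 0.0882 and 0.0268) and Gata2 (-0.28, 0.145 and 0.0461) were lower too. Their mean spanned 11.41 to 11.57 against 11.02 to 11.38 at passage 2 and 11.41 to 11.85 against 10.86 to 11.24 at passage 10. Of 6 eosinophil genes 5 were negative (median -1.07), none passed without the block, and Epx, the eosinophil peroxidase gene (-2.22, adjusted p = 0.0501 and 0.0169), and Il5ra (-0.97, 0.0822 and 0.0412) were lower with it. Their mean spanned 8.87 to 9.13 against 7.41 to 7.60 at passage 2 and 7.24 to 9.17 against 7.08 to 8.58 at passage 10. Adgre1 of the monocyte and macrophage list (0.26, adjusted p = 0.208 and 0.0419) and Itga2b of the megakaryocyte list (0.35, 0.213 and 0.0416) were higher with the block. Of the other monocyte and macrophage genes F13a1, Ccr2 and C1qa were positive, and Cx3cr1 (-0.38), Ms4a6c (-0.13) and Csf1r (-0.04) were negative. Of the other megakaryocyte genes Gp9 and Itgb3 were positive, and Ppbp (-0.31), Vwf (-0.21) and Pf4 (-0.07) were negative. The part of these cell types and of Kit in the histone differences was not tested.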

How the data were processed

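Each of the 12 samples, 100 ng of total RNA, was hybridised to 1 GeneChip Mouse Gene ST 2.0 array. The authors deposited log2 values, computed by RMA in Affymetrix Power Tools per the submitters' processing notes. Their version is not given in the sources used here. RMA scales arrays to each other, so differences are relative to all genes, and the number of arrays limits the precision.

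Of 41345 rows, 28941 had a mean at or above the 30th percentile (log2 4.70). Rows with 1 gene symbol were named through a reference gene table (GRCm38.p6), taking for each gene its row of highest mean, leaving 16860 genes. limma 3.58.1 in R 4.3.3 fitted 1 mean per group to all 12 arrays (8 residual and 3.33 prior degrees of freedom; 6 and 3.93 with the replicate block). All 7 contrasts were tested, two-sided, with Benjamini-Hochberg adjustment over all genes and a threshold of 0.05. Values after ± are standard errors of the fit unless an SD is named. The steps were tested on simulated data.

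Same-numbered arrays of different groups correlated at 0.201 to 0.517 in their deviations from group means (18 pairs), against -0.369 to 0.0532 for different numbers (36 pairs). The pairing comes from these data and the labels' replicate numbers, and blocked values are given where they change the call of a histone gene, or as counts of pathway genes and by name for marker genes in the average contrasts.

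Members, gene lists and tests were chosen with earlier results of these data known. Genes named are Tet2, histone genes that passed in any contrast with or without the block, the largest and smallest differences per type, up to 4 passing members per list and contrast, and genes behind a count of 5 or fewer; other members were named to account for all. Alternatives were 2 other scalings, 2 other filters, trend and robust options in limma, weights per array, a block for the replicate number, fixed or random, averaging rows of a gene, fitting each contrast's own arrays alone, leaving out arrays or replicate numbers, and, added after seeing the data, all rows. Promoters are RefSeq's, read with Python 3.11.15.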

Additional observations from a re-analysis of the deposited data

How the results depend on the processing

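Over the 11 settings that keep all arrays, the median histone difference stayed between -0.48 and -0.36 for the average over passage (10 settings), between -0.47 and -0.36 in Tet2-/- cells, between -0.43 and -0.37 in Tet2fl/fl cells and between 0.11 and 0.22 for the average over genotype (10 settings), and no gene that passed changed sign in 711 repeats (542 kept their side of the threshold, 134 lost it and 35 gained it). Histone genes that passed for passage in Tet2-/- cells (4) were 10 with the fixed replicate block, 7 with the random replicate block, 0 when each contrast's own arrays were fitted alone and 2 over all rows; without 1 array the count was 0 to 5, and without 1 replicate number 0 in each case. For genotype at passage 10 (0) the count was 1, H4c9, with quantile normalization, the 50th percentile filter, array weights, the fixed and the random replicate block, and 0 to 1 without 1 array. For the average over passage (11) it was 5 to 12 without 1 array and 0 without any 1 replicate number, and 15 with either block; for the average over genotype (2) it was 1 to 3 without 1 array and 0 to 1 without 1 replicate number. Leaving out a replicate number removes 4 of 12 arrays. The counts without an array or a number stand without the share of all genes. They do not tell whether histone genes lost calls more than other genes did. With the fixed block 4.68% of all genes were lower for passage in Tet2-/- cells and 7.28% for the average over passage. By that block 0.611% were higher for genotype at passage 10. Over all rows 0.715% were lower for passage in Tet2-/- cells. The block changed no other call on a histone gene than those named in the text. Why calls changed between settings was not tested. The counts for genotype at passage 2, passage in Tet2fl/fl cells and the interaction were 0 under each setting run. H2ac21, H4c14 and H1f1 were the members that lost their average passage call under a setting with all arrays.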

Other observations

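Histone genes varied more between arrays of a group than other genes did. The median within-group SD was 0.24 over the 22 members and 0.15 over all 16860 genes, from 0.08 for H4c9 to 0.38 for the most variable member. In the mean of the 22 members, replicate 3 lay above its group mean in 3 of 4 groups and replicate 2 below it in 3 of 4, with deviations of up to 0.24 and down to -0.20.

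Of the 4 members below the filter, H4c8 read 2.62, 3.25 and 3.31 in Tet2fl/fl against 4.24, 4.71 and 3.69 in Tet2-/- cells at passage 2, and 3.42, 2.92 and 2.96 against 3.33, 3.55 and 3.38 at passage 10. Without a filter its average genotype difference was 0.73 ± 0.17 (limma, adjusted p = 0.0777), at a level where array signals are close to background. H2ac12 had an average passage difference of -0.64 ± 0.24 (adjusted p = 0.14), H4c2 of -0.38 ± 0.18 (0.237) and H2bc1, a testis H2B gene, of 0.00 ± 0.12 (0.992).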
